A study of Mus musculus with 5 samples.

Results

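The spectrin chain genes Sptan1, Sptbn1, Sptbn4 and Sptb were followed through a sequencing experiment on RNA that was immunoprecipitated with CYFIP1 from mouse hippocampus. They were chosen by the read counts of called regions that the deposited lists place on them, by gene name and by an annotated position inside the gene or across either of its ends. These 4 were among 4727 genes with a region in any list. The choice was made from the read counts themselves, so every fold below is a description, with no test.

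CYFIP1 binds the fragile X protein FMRP and is a subunit of the WAVE complex, which drives branched actin assembly. All mice were on the strain C57BL/6. Hippocampal lysates of knock-in mice 1 and 2 were precipitated with anti-HA, an antibody against a short epitope tag, and with control IgG, and the lysate of 1 wild-type mouse was precipitated with anti-HA. This gave 5 libraries, with 2 of knock-in anti-HA, 2 of knock-in IgG and 1 of wild-type anti-HA. The labels give no age, allele or tagged position for the knock-in, and they do not say whether IgG and anti-HA used the same lysate. The 4 lists pair knock-in anti-HA 1 and 2 with the IgG library of the same number and each with the single wild-type library. They held 4191 and 1920 regions over IgG and 5355 and 5362 over wild type. The HA reads inside them came to between 64055 and 166760, and reads outside regions were not analysed here, so the depth of the libraries is unknown.

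Spectrins are long, rod-shaped proteins built from repeated triple-helical bundles. An alpha chain and a beta chain pair side by side, and pairs join end to end into tetramers that cross-link short actin filaments beneath the plasma membrane. In neurons this skeleton forms a periodic lattice along axons and dendrites. Sptan1 encodes alpha-II spectrin, the alpha chain of nearly all cells other than red cells. Sptbn1 encodes beta-II spectrin, its most widespread partner, and Sptbn4 encodes beta-IV spectrin of axon initial segments and nodes of Ranvier. Sptb encodes beta-I spectrin, the beta chain of red cells, which muscle and brain also make.

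On both chains with many reads, every region touched an exon and nearly every region touched coding sequence. A few coding stretches of Sptan1 and Sptbn1 are printed below. The lists do not place reads within a region. In each line below, capitals mark the bases that lay inside a called region over IgG in both mice, and small letters mark bases outside at least 1 mouse's regions. The stretches are given 5′ to 3′ on the strand of the gene, from the GENCODE M21 transcripts on GRCm38, the same assembly as mm10. The Sptan1 line shows exon 44, on the plus strand at chr2:30021191-30021323, which had the most HA reads per exonic base among the mouse 1 regions on a single coding exon with at least 100 exonic bases. The Sptbn1 lines contrast a long and a short coding form. Exons 2, 33 and 34 belong to the long form (chr11:30219579-30219726, chr11:30104436-30104674 and chr11:30103248-30103421, all on the minus strand). The short form has its own first coding stretch and its own last one (chr11:30197724-30197832 and chr11:30109005-30109088).
Sptan1 exon 44: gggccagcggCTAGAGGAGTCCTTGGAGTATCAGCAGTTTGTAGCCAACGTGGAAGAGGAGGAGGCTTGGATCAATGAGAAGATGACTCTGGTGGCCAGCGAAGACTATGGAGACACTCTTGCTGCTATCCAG
Sptbn1 long form, exon 2: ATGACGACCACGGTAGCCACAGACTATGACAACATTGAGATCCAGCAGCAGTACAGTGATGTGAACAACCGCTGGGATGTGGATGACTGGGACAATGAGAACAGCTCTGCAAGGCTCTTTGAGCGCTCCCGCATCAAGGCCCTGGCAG
Sptbn1 long form, exon 33: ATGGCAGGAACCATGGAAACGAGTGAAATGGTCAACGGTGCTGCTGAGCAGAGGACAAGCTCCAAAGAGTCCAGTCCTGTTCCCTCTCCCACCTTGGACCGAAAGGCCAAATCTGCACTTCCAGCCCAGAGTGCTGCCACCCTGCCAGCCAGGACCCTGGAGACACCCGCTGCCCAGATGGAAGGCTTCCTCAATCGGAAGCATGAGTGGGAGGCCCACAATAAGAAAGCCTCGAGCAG
Sptbn1 long form, exon 34: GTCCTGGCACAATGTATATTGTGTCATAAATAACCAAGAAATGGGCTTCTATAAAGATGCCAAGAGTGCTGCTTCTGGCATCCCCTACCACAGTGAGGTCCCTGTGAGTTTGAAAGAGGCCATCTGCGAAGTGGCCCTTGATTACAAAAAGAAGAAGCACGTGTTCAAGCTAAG
Sptbn1 short form, exon 1: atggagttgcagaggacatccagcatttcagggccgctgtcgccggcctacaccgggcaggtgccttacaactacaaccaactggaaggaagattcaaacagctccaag
Sptbn1 short form, exon 31: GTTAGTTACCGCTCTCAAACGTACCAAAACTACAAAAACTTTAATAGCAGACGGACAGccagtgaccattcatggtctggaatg

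HA reads on the 4 genes ran from 9 to 5046 per list. Sptan1 and Sptbn1 had regions only over IgG, Sptbn4 only over wild type in mouse 1, and Sptb in both lists of mouse 1 with few reads. The members' regions numbered 69 of 4191 over IgG in mouse 1, 69 of 1920 in mouse 2, 5 of 5355 over wild type in mouse 1 and 0 of 5362 in mouse 2. The wild-type lists held 0 regions on chromosomes 2 and 11 for any gene, so Sptan1 and Sptbn1 could not be compared with wild-type anti-HA. A gene with no region has no value in these lists, and its level is not known. In whole-tissue lysate, fewer cells of a type and less RNA per cell cannot be told apart.

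**Figure D1:**
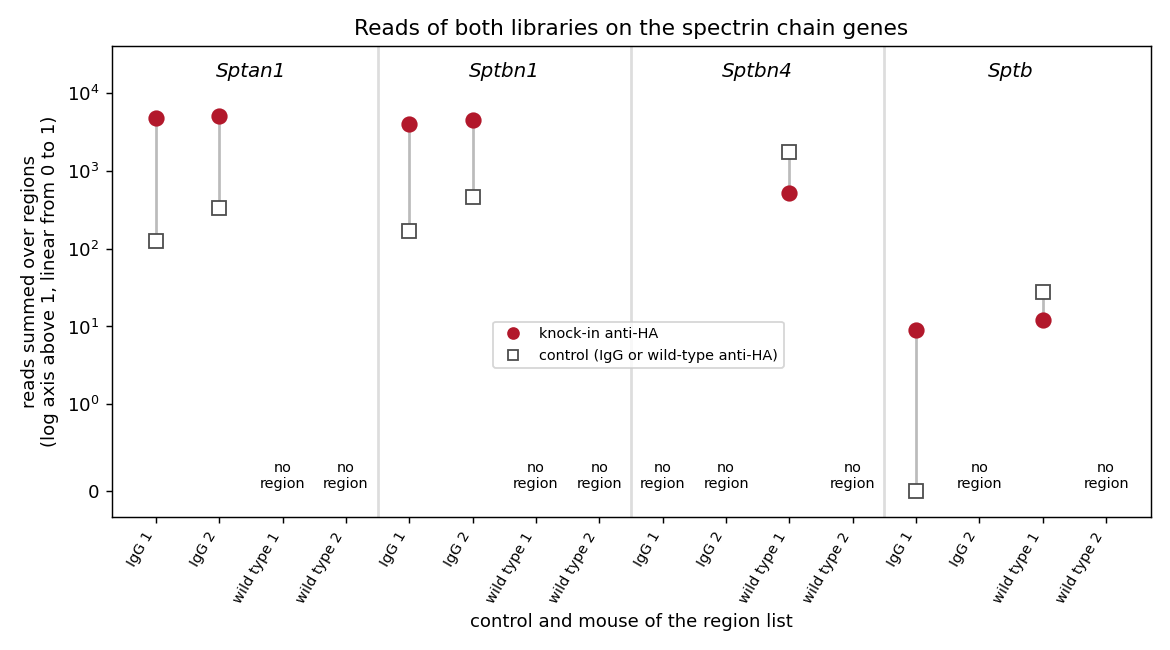
Reads summed over the called regions of each spectrin chain gene (vertical axis, logarithmic above 1) in each of the 4 lists (horizontal axis). Filled circles are the knock-in anti-HA library and open squares its control, 1 library each; anti-HA lay above IgG on Sptan1 and Sptbn1 (4755 against 124 and 3954 against 166 in mouse 1), and below wild-type anti-HA on Sptbn4 (515 against 1730) and Sptb (12 against 28).

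On the alpha chain gene Sptan1 (ENSMUSG00000057738, chr2:29965680-30031445, plus strand, mm10), HA reads numbered 4755 in mouse 1 and 5046 in mouse 2, against 124 and 330 with IgG. The HA reads of the mice were close, while the IgG reads were higher in mouse 2, and both HA libraries lay above both IgG libraries. Raw ratios of HA to IgG reads were 38.3 and 15.3. Folds in this text divide the raw ratio by the median ratio of the list over regions with at least 20 reads, HA and control together. That median was 2.89 over IgG in mouse 1 and 0.947 in mouse 2, and 1.41 and 1.75 over wild type. Relative to it, Sptan1 was 13.2-fold in mouse 1 (95% exact interval 11.1 to 16.0) and 16.2-fold in mouse 2 (14.4 to 18.1), with a mean log2 fold of 3.87 ± 0.20 (SD, n = 2). The intervals cover counting error only, since PCR reads are not independent molecules, and the SD may hold only technical spread, since the labels do not describe the mice.

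Sptan1 took 4.78% of all HA reads in the list of mouse 1 and 7.88% in mouse 2. It held 36 regions over 14.35 kb in mouse 1 and 38 over 15.8 kb in mouse 2. All of them touched an exon of its 57-exon reference transcript, whereas 86.7% and 86.6% of all regions in these lists touched an exon of any gene. They were narrow, with a median width of 205 and 400 bp beside 1640 and 2200 bp over all regions of the lists. The regions lay across the whole message, reaching 52 and 55 exons and 92.2% and 97.7% of the transcript, and 35 and 37 of them touched coding sequence. The density was 654 HA reads per kb of exon in both mice, beside 17.0 and 42.8 IgG reads per kb of exon. This counts every read of a region as exonic, although 50.7% and 48.8% of the region bases were exonic. Single regions held from 26 to 634 HA reads in mouse 1 (median 92) and from 31 to 581 in mouse 2 (median 86.5). The same regions held 0 to 20 IgG reads in mouse 1, with 7 regions at 0, and 0 to 39 in mouse 2, with 1 region at 0. Every Sptan1 region had more HA reads per kb than the IgG density of any Sptan1 region in the same mouse.

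The most HA reads on Sptan1 fell at the 3′ end of the message, in the widest regions. In mouse 1 this was chr2:30029631-30031475 over exons 52 to 57, with 634 HA reads against 20 with IgG, and in mouse 2 chr2:30030001-30031400 over exons 53 to 57, with 581 and 39. The region on exon 44, printed above, had 123 HA reads against 1 with IgG in mouse 1, and 97 against 8 in mouse 2. The fewest HA reads fell in the regions on exons 27 and 28, which hold 36 and 48 exonic bases. Cut into 3 equal parts from 5′ to 3′, the transcript was 11.8-, 12.9- and 15.7-fold in mouse 1 and 15.7-, 15.9- and 17.1-fold in mouse 2. No part of the message carried the reads alone.

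**Figure D2:**
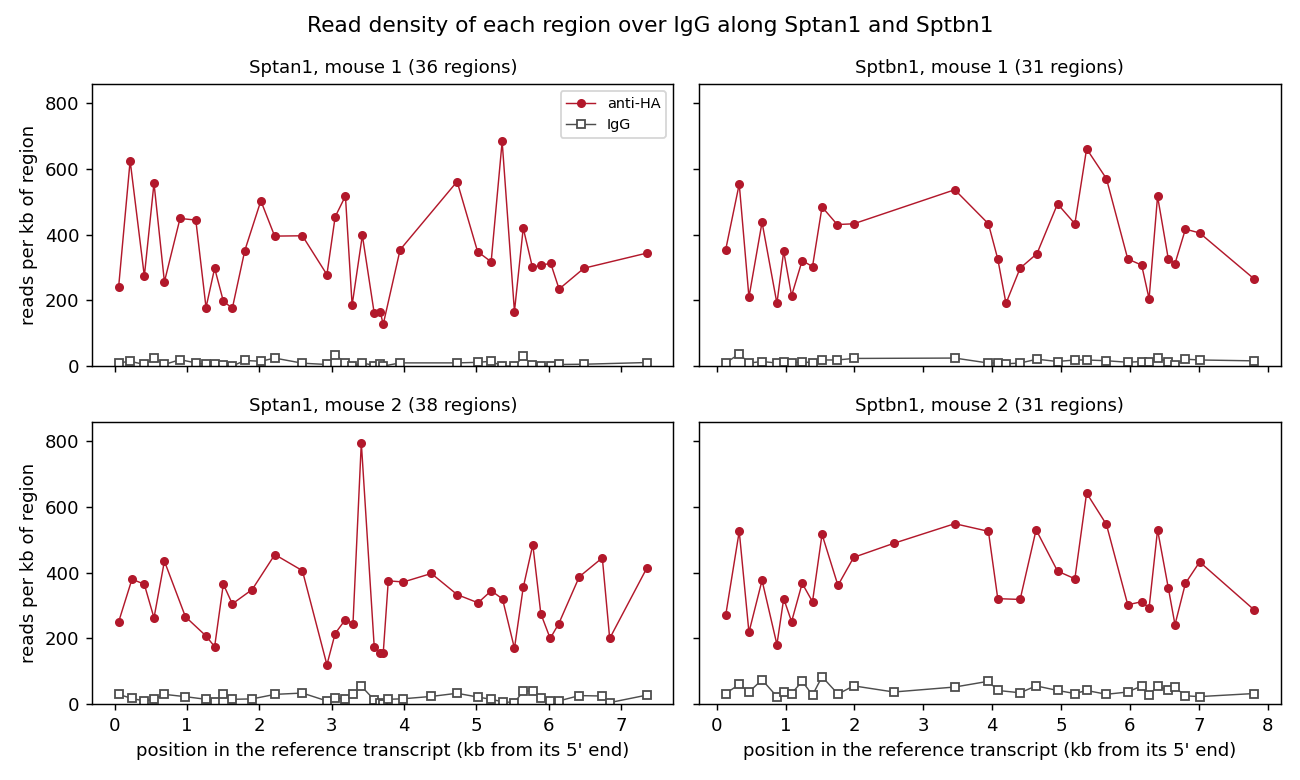
Reads per kb of region (vertical axis) against the position of the middle of each region's exonic part in the reference transcript (horizontal axis, kb from the 5′ end) for Sptan1 and Sptbn1 over IgG, with filled circles for anti-HA and open squares for IgG in mice 1 and 2. Anti-HA lay between 120 and 795 reads per kb on Sptan1 and between 181 and 660 on Sptbn1 in every region, and IgG reached at most 55 and 83.7.

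The beta chain Sptbn1 (ENSMUSG00000020315, chr11:30099395-30268169, minus strand) had 3954 HA reads in mouse 1 and 4484 in mouse 2, against 166 and 466 with IgG. As on Sptan1, the HA reads were close between the mice and IgG was higher in mouse 2. The raw ratios were 23.8 and 9.62. Sptbn1 was 8.23-fold in mouse 1 (95% exact interval 7.04 to 9.67) and 10.2-fold in mouse 2 (9.24 to 11.2), a mean log2 fold of 3.19 ± 0.22 (SD, n = 2). In each mouse Sptan1 lay above Sptbn1. The counting intervals of the pair did not overlap within a mouse, but they cover counting error only and the difference was not tested. Sptbn1 took 3.97% and 7.00% of the HA reads of the lists.

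Its 31 regions in each mouse covered 10.535 and 11.395 kb and all touched an exon. They reached 32 and 33 of 36 exons of the long transcript and 83.6% and 93.7% of its length. Counted in the same way, HA density was 559 and 565 reads per kb of exon, below that of Sptan1 in both mice. IgG density was 23.5 and 58.8, above that of Sptan1. Single regions held 41 to 461 HA reads in mouse 1 (median 93) and 39 to 631 in mouse 2 (median 96), beside 1 to 24 and 5 to 49 IgG reads. The 3 equal parts of the transcript were 7.95-, 9.14- and 7.60-fold in mouse 1 and 9.69-, 10.5- and 10.4-fold in mouse 2. Among the fullest regions in both mice was chr11:30136766-30137625 on exon 16, where HA reads numbered 461 and 472 and IgG reads 21 and 45.

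Of the 8 annotated transcripts of Sptbn1, a long and a short coding form were compared with each other. They differ at both ends, and most of the regions there lay on stretches that the short form lacks. The long form (ENSMUST00000006629, 36 exons, 7089 coding bases) has 6 stretches that the short form lacks, 2192 bases in all. The short form (ENSMUST00000102838, 31 exons, 6462 coding bases) has 2 stretches of its own, 2838 bases in all. Regions lay on 5 of the 6 long-form stretches in each mouse and covered 95.5% of their bases, with 860 HA reads against 47 with IgG in mouse 1, and 854 against 85 in mouse 2. On the short-form stretches, 1 region covered 58 bases, 2.04% of the total. Those are the capitals at the start of the short-form exon 31 line above, where a region that also spans the neighbouring shared exon (67 HA reads against 1 with IgG in mouse 1, 52 against 11 in mouse 2) runs on. The first exon of the short form had no region in either mouse, and its line above is in small letters throughout. On the long-form lines HA reads in mice 1 and 2 numbered 179 and 158 in the exon 33 region against 9 and 11 with IgG. In the exon 34 region they were 87 and 93 against 4 and 5, and in the exon 2 region 119 and 113 against 8 and 13. The lists count no reads between regions, so a stretch without a region is not shown to lack RNA. The regions on exons 2, 33 and 34 hold further exonic bases of other transcripts, so their reads cannot be assigned to the long form alone.

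**Figure D3:**
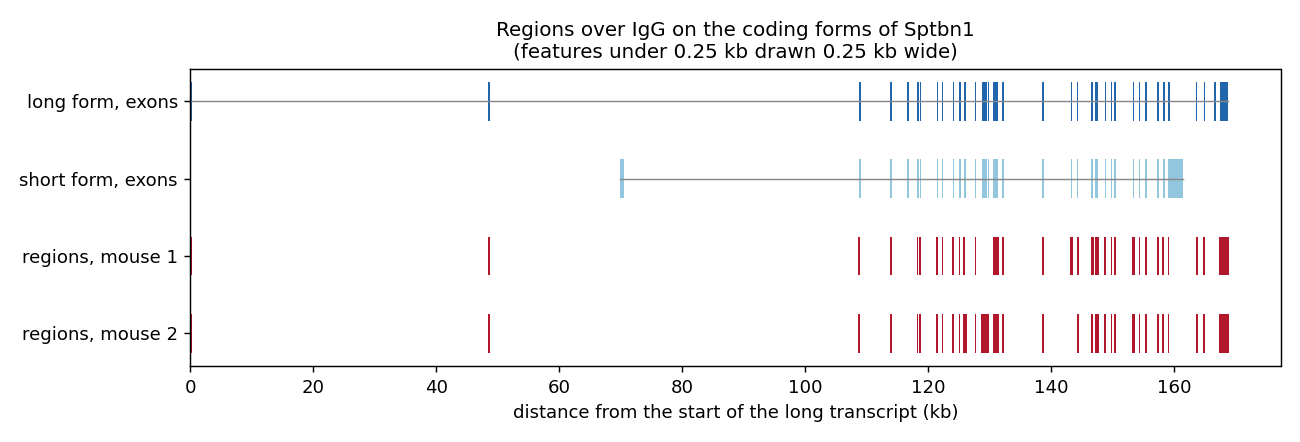
Exons of the long and the short coding form of Sptbn1 and the called regions over IgG in mice 1 and 2, against distance from the start of the long transcript in kb. In each mouse, regions sit on 5 of the 6 stretches of the long form that the short form lacks. The first exon of the short form carries none. Of the last-exon part that the long form lacks, 58 bases lie in a region.

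Sptbn1 could be compared between the mice region by region. Its regions had the same bounds in both mice at 28 places, with 3540 HA reads in mouse 1 and 3506 in mouse 2, against 146 and 386 with IgG. The ratio of HA reads in mouse 2 to those in mouse 1 ran from 0.763 to 1.43 over these regions, with a median of 1.02. Across the 28 regions the Pearson correlation between mice was 0.988 for HA reads and 0.912 for IgG reads, as a description, since the regions belong to 1 gene and differ in width. On Sptan1, 36 of 36 regions of mouse 1 overlapped a region of mouse 2 and 37 of 38 the reverse. The bounds there were never identical, since the lists use bins of different size on chromosome 2, and the shared 11.68 kb made up 81.4% of the covered length in mouse 1 and 73.9% in mouse 2.

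**Figure D4:**
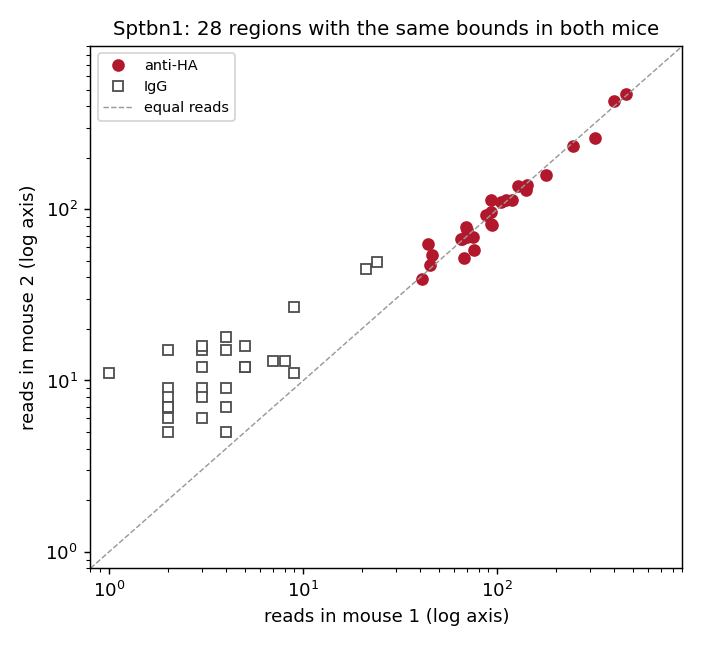
Reads in mouse 1 (horizontal axis) and mouse 2 (vertical axis), both logarithmic, in the 28 regions of Sptbn1 with the same bounds in both mice; filled circles are anti-HA, open squares IgG, and the dashed line marks equal reads. Anti-HA points follow the line (median ratio 1.02), and the summed IgG reads were 146 in mouse 1 and 386 in mouse 2.

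Most genes in the lists did not come near these folds. Over IgG in mouse 1, 35 of 1097 genes with at least 20 reads reached 4-fold (3.19%), in mouse 2 it was 28 of 719 (3.89%), and of the 392 genes that met this read minimum in each mouse, 19 did so in both (4.85%). Sptan1 and Sptbn1 were among the 19, and ranked 10 and 15 by mean log2 fold. The 19 lay at 11 places, because small genes share regions with larger ones, as Mir6997 does with Sptan1 and Gm8098 with Sptbn1. Single regions reached 4-fold more often, at 17.2% of 860 regions with at least 20 reads in mouse 1 and 21.8% of 756 in mouse 2. Among these were 35 of 36 and 38 of 38 regions of Sptan1 and 31 of 31 regions of Sptbn1 in each mouse, with 3 counts in place of a control of 0. The exception was the mouse 1 region on Sptan1 exon 28, with 26 HA reads and 0 IgG reads. Next to the 4-fold limit, Gm15202 lay inside at 5.76- and 20.8-fold, and Shank2, a scaffold of the postsynaptic density, just outside at 3.89- and 7.29-fold.

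The size of the folds rests on the list medians. Of the regions with at least 20 reads in mouse 2, 116 of 756 lay outside the spectrin genes and off chromosomes 12 and 15, and their median ratio was 4.93 in place of 0.947. Relative to it, Sptan1 was 3.10-fold and Sptbn1 1.95-fold in mouse 2, below the 4-fold limit. In mouse 1 the corresponding median over 528 of 860 regions was 2.89, and the folds did not move. This alternative was chosen after the data were seen. The few other regions on the chromosomes of these genes were also rich in HA reads. On chromosome 11 the 29 other regions with at least 20 reads had a median raw ratio of 19.7 in mouse 1, near the 23.8 of Sptbn1, and the 21 in mouse 2 had 6.28 beside its 9.62. On chromosome 2 the median was 5.62 over 4 other regions in mouse 1 and 2.55 over 12 in mouse 2, beside 38.3 and 15.3 for Sptan1. Just 4 and 8 genes had any region on chromosome 2 in these lists, and 8 and 9 on chromosome 11.

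**Figure D5:**
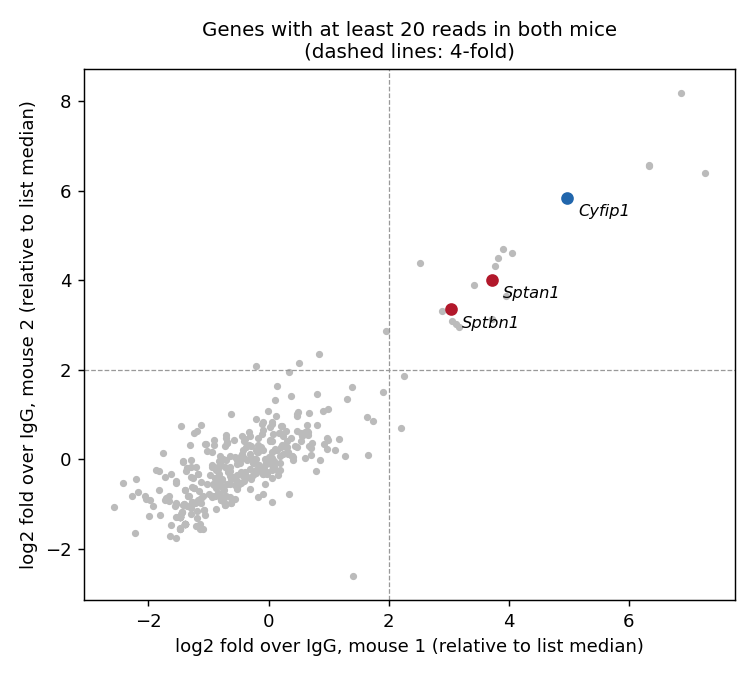
Log2 fold over IgG in mouse 1 (horizontal axis) and mouse 2 (vertical axis), each relative to its list median, for the 392 genes that met the minimum of 20 reads in each list; dashed lines mark 4-fold. Each point is a gene; Sptan1 (3.73 and 4.01) and Sptbn1 (3.04 and 3.35) are among the 19 genes beyond both lines, below Cyfip1 (4.98 and 5.83), the mRNA of the precipitated protein.

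In the authors' deposited table the adjusted p-value was below 0.05 for 36 of 36 and 38 of 38 regions of Sptan1 over IgG and for 31 of 31 and 30 of 31 of Sptbn1. The empirical false discovery rate in the authors' deposited table was below 0.1 for 18 of 36 regions of Sptan1 in mouse 1 and for 17 and 19 of 31 regions of Sptbn1, and 0.1 or more for the rest of these. On Sptan1 in mouse 2 that column of the authors' deposited table ran from 1.09e-155 to 6.70e-46, where in mouse 1 it ran from 0.0488 to 0.5, so its values there are not on the same scale and are not counted here.

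The axonal beta chain Sptbn4 (ENSMUSG00000011751, chr7:27356383-27446599, minus strand) had regions in a single list, set against wild-type anti-HA and not IgG. There, in mouse 1, its 2 wide regions had 515 HA reads against 1730 of the wild type. The region chr7:27356401-27375600 held 278 HA and 909 wild-type reads, and chr7:27391401-27447600 held 237 and 821, so wild-type anti-HA was higher in both. The raw ratio was 0.298 and the fold 0.211 (95% exact interval 0.191 to 0.233), with no replicate. On the log2 scale this is -2.25, and with the pooled ratio of the list in place of the median it was -1.51, no longer below the 0.25-fold limit. Of 1942 genes with at least 20 reads in that list, 29 lay at 0.25-fold or less (1.49%), Sptbn4 among them. The other 281 regions on chromosome 7 with at least 20 reads had a median raw ratio of 1.35.

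The Sptbn4 regions were unlike those of Sptan1 and Sptbn1. They spanned 75.4 kb and 36 of 36 exons, and 11.6% of their bases were exonic, against 48.8% to 69.6% for the regions of the other pair. Per kb of exon this comes to at most 59.0 HA reads if every read were exonic, in the same HA library that gave 654 on Sptan1 and 559 on Sptbn1. Gm20479 shares 1 of the regions. In the authors' deposited table the adjusted p-value was below 0.05 for 0 of the 2 regions. In mouse 2 over wild type and in both IgG lists Sptbn4 had no region, so the low value has no second mouse. The list of mouse 1 over wild type held 545 regions on chromosome 7, against 36 over wild type in mouse 2 and 19 and 32 over IgG.

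The red cell beta chain Sptb (ENSMUSG00000021061, chr12:76580488-76710547, minus strand) was near the limit of counting. Over IgG in mouse 1 it held 9 HA reads and 0 IgG reads in 2 regions. With 3 counts as the floor per gene where the control has 0, it was 1.04-fold, near the list median. The 95% exact interval reached down to 0.682 and had no upper end. Over wild type in mouse 1 its 3 regions had 12 HA reads against 28 of the wild type, 0.303-fold (95% exact interval 0.141 to 0.616). Both IgG regions recurred with the same bounds over wild type, so the 3 libraries of mouse 1 and the wild type can be read side by side there. The region chr12:76610881-76611840 held 3 HA, 0 IgG and 7 wild-type reads, and chr12:76613281-76619040 held 6, 0 and 17. In both, wild-type anti-HA was highest and IgG lowest. Over all 3212 regions with the same bounds in both lists of mouse 1, the reads summed to 48529 HA, 15145 IgG and 41515 wild-type, so the order on Sptb differed from that of the sum. Just 80 bases of these regions, 1.19% over IgG, fell on exons of the Sptb reference transcript. In the authors' deposited table the adjusted p-value was below 0.05 for 2 of 2 Sptb regions over IgG and 0 of 3 over wild type. The empirical false discovery rate in the authors' deposited table went the other way. It was below 0.1 for 0 of 2 regions over IgG (0.205 and 0.737) and 2 of 3 over wild type.

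Sptbn5, a further spectrin chain gene, had no region in any list. Likeness to a member was measured as the distance in log2 fold over the lists that hold it, among genes that met the read minimum there and share no region with the member. For Sptbn1, over both IgG lists and 17 genes, the nearest were Gm12264 at 0.15, 1700007J10Rik at 0.25 and Mprip at 0.33, and all regions of Gm12264 and 1700007J10Rik were shared with Mprip, whose protein binds myosin phosphatase. For Sptbn4 the nearest of 562 genes in its single list were Mir3102 at 0.14, Tshz3 at 0.23 and Apoe at 0.44. For Sptb, over 2 lists and 31 genes, they were further off, with 1700001K19Rik and Gm17111 at 1.12 and Gm20753 at 1.45. The read counts of 1700001K19Rik and Gm17111 were the same, and the Sptb fold over IgG used the floor.

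Some of the genes whose proteins bind or anchor spectrin had a region, and those with at least 20 reads lay below 4-fold. The list of 36 holds ankyrins, adducins, protein 4.1 and tropomodulin genes, actins, calpains, CAMSAPs, adhesion molecules and channels of the axon initial segment and further partners. Of these, 11, 5, 11 and 12 had a region over IgG in mice 1 and 2 and over wild type in mice 1 and 2. Genes of any kind with a region numbered 2703, 1113, 3721 and 3260, where 21899 mouse genes have a coding sequence. The share with a region was thus higher among the partners in each list, and this difference was not tested. Of the partners, 9, 5, 10 and 11 held at least 20 reads, and those at 4-fold or more numbered 0 in each list. Among all genes with that many reads, 3.19%, 3.89%, 1.75% and 1.67% reached 4-fold, so a count of 0 among 5 to 11 genes is near the background. Their median fold was 0.729, 0.680, 1.05 and 1.09, beside 0.839, 0.822, 1.15 and 1.10 over all genes with at least 20 reads. Ank3, which encodes ankyrin-G, the anchor of beta-IV spectrin at the initial segment, had 43 HA reads against 19 with IgG in mouse 2, 2.39-fold (95% exact interval 1.36 to 4.34), and the same 43 against 99 of the wild type, 0.248-fold (0.169 to 0.358). No other gene of the list lay at 0.25-fold or less in any of the 4 lists, where 1.19%, 0.974%, 1.49% and 1.49% of all genes with at least 20 reads did.

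The other partners lay on both sides of their list medians. Nrcam, an adhesion molecule of the initial segment and nodes, had 105 and 134 HA reads in mice 1 and 2 against 115 and 270 with IgG, 0.315-fold and 0.524-fold. Over wild type Nrcam was 1.05- and 0.982-fold. Nfasc, a further adhesion molecule there, was 0.576-fold over IgG in mouse 1 and 1.29- and 1.09-fold over wild type. The sodium channel gene Scn8a was 0.561- and 0.680-fold over IgG and 0.789- and 0.807-fold over wild type, and the potassium channel gene Kcnq3 1.04- to 2.25-fold across all 4 lists. Add2, an adducin that caps actin at spectrin junctions, was 0.918-fold over IgG in mouse 1 and 0.702- and 0.690-fold over wild type. Tmod1, a cap of the pointed ends of actin, was 0.729-fold over IgG in mouse 1 and 2.97- and 2.57-fold over wild type, from 5 and 6 wild-type reads. Evl, an actin regulator of the Ena/VASP family, was 0.532- and 0.675-fold over IgG and 2.02- and 1.40-fold over wild type. Camsap2, Capn2 and Grin2b lay between 0.712- and 1.48-fold wherever they had a region.

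Genes of other proteins that contain spectrin repeats had higher medians over IgG than over wild type, but the sets of genes differed between lists. Of 14 such genes, 5 and 4 held at least 20 reads over IgG and 7 and 6 over wild type, and their median folds were 2.10 and 1.64 over IgG but 0.220 and 0.177 over wild type. None of them reached 4-fold in any list, while 5 in mouse 1 and 4 in mouse 2 lay at 0.25-fold or less over wild type, beside 1.49% of all genes with at least 20 reads in each of these lists. At 4-fold the background of 1.67% to 3.89% leaves a count of 0 among 4 to 7 genes with nothing to read from it. Both wild-type lists divide by the same wild-type library. Macf1, a linker of actin and microtubules, was 2.62- and 3.08-fold over IgG and 0.220- and 0.178-fold over wild type. In mouse 2 its raw ratio over IgG was 2.92, below the alternative median of 4.93 off chromosomes 12 and 15. Actn4 had 43 HA reads against 626 of the wild type in mouse 1, 0.0486-fold, and Actn1 was 0.122- and 0.112-fold over wild type and 0.599- and 0.625-fold over IgG; both encode actinins, which cross-link actin. Dst, by 1 of its 2 identifiers, and Plec, which encode cytolinkers, were 0.223- and 0.167-fold and 0.199- and 0.176-fold over wild type. Trio, a guanine nucleotide exchange factor, was 3.15-fold over IgG in mouse 1 and between 1.07- and 1.21-fold elsewhere. Thus Actn1 lay below its list median under both controls, and Trio lay above it under both, but not always beyond counting error. The 95% exact intervals of Actn1 over IgG, 0.306 to 1.22 and 0.381 to 1.01, reached both sides of the median. So did those of Trio over IgG in mouse 2 (0.878 to 1.29) and over wild type (0.963 to 1.53 and 0.891 to 1.43). Syne2 of the nuclear envelope was 0.371-fold over wild type in mouse 1, and Dmd, which encodes dystrophin, 2.10-fold over IgG in mouse 1 and 0.318-fold over wild type in mouse 2. Whether Sptan1 and Sptbn1 differ by control could not be seen, as they had no region over wild type.

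Markers of cell types were unevenly present in the lists. Of 8 markers of red cells, where Sptb is the beta chain, 0 had a region in any list, and the same held for 4 of microglia and 3 of endothelium. Genes of any kind with a region numbered 2703, 1113, 3721 and 3260 in the 4 lists, where 21899 mouse genes have a coding sequence. Most genes had none, so a count of 0 among 3 to 8 markers is near the background. Of 8 markers of hippocampal neurons, 3, 0, 3 and 4 had a region, at 0.451- to 2.25-fold, and Camk2a, Grin1, Snap25 and Nrgn had none. Of 5 astrocyte markers, 2 had a region in each list, with Slc1a2 at 2.74-fold over IgG in mouse 2 the highest. These shares were above that of all genes in each list for astrocytes, and for neurons in each list except over IgG in mouse 2. The counts are small, and the difference was not tested. The part of the cell types in the spectrin values was not tested either.

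The members share a long coding sequence. Among 21899 mouse genes with a coding sequence, whose median longest one was 1170 bases, those of Sptan1, Sptbn1, Sptbn4 and Sptb had 7494, 7089, 7683 and 6987 bases, at percentiles 98.9, 98.7, 98.9 and 98.6. Their GC content differed more, at 52.0%, 50.6%, 64.0% and 56.9%, where the median gene had 51.8%.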

How the data were processed

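Libraries were made from immunoprecipitated RNA with a NEBNext Ultra kit and sequenced single-end with 50 cycles, per the labels. Tools in the submitters' processing notes are TopHat and TopHat2, and the builds there are GRCm38 and mm10. Per the file headers, rtracklayer 1.28.9 exported the lists. The region caller and its settings are not given in the sources used here. For each region the deposited lists hold the read count of the HA library and of its control, not scaled to library size, with an empirical false discovery rate and an adjusted p-value by the authors.

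Reads were summed over the regions placed on a gene. The ratio of HA to control reads was divided by the list median over regions with at least 20 reads, and 3 counts replaced a control of 0. Intervals are exact 95% binomial intervals. The fold calculation was run on simulated counts with the same base ratio for every gene outside a chosen set. In the list of mouse 2 over IgG the median differed between chromosomes, so the simulation cannot judge the choice of scale. Regions were set on GENCODE M21 exons; the reference transcript of a gene is its complete consensus coding form with the most coding bases. Python 3.11.15, NumPy 2.4.6, SciPy 1.17.1 and matplotlib 3.10.9 were used. The members, gene lists, limits and alternatives were chosen with earlier results of these data known. Named genes were the spectrin chains, partners and spectrin-repeat genes with at least 20 reads in a list, and the 3 nearest genes per member by distance in log2 fold. Some genes that this rule names are not reported here.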

Additional observations from a re-analysis of the deposited data

How the results depend on the processing

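Of 36 recomputed log2 folds, 24 stayed within the spread between mice or the counting interval, 12 moved further and 0 changed direction. Part of the 24 was fixed in advance. With n = 2, the value of either mouse alone must lie within the SD. Keeping only regions that touch an exon removed none of the members' regions, and Sptb had no shared region to remove. Of 11 recomputed counts of genes, 8 stayed within 1.5 times the 19 and 3 did not. As log2 folds, Sptan1 was 3.12 and Sptbn1 2.44 with the pooled ratio of the list as the scale, 4.60 and 3.92 without scaling, 3.44 and 2.76 with the median over regions of at least 50 reads, and 2.68 and 2.00 with the median off chromosomes 12 and 15, chosen after seeing the data. With either mouse left out they ranged from 3.73 to 4.01 and from 3.04 to 3.35. Sptbn4 was -1.51 with the pooled ratio, -1.75 without scaling, and -2.40 and -2.10 with medians over 10 and 50 reads. Sptb stayed within its interval under each alternative. The 19 genes at 4-fold in both mice became 9 with unshared regions alone, which removes genes that share every region, and 11 when counted as places, and either mouse alone gave 28 or 35. No paired analysis was possible because no result comes from a test; each fold over IgG sets an HA library against the IgG library of the same number. The total reads per library are unknown, so folds are relative to other called regions.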

Other observations

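Some exons of the Sptan1 and Sptbn1 messages lay outside the regions of both mice. In Sptan1 these were exons 37 and 51, of 15 and 18 bases, and exons 32 to 34 lay in a region of mouse 2 alone, chr2:30010601-30011400, with 318 HA and 19 IgG reads. In Sptbn1 exons 5 and 35, of 92 and 43 bases, lay outside both, exon 19 lay in a region of mouse 1 alone, and exons 14 and 15, of 871 and 138 bases, lay in a region of mouse 2 alone, chr11:30138271-30139560. That region held 631 HA and 48 IgG reads, the most HA reads of any Sptbn1 region in mouse 2, while mouse 1 had no region there. Reads of mouse 1 at that place were not analysed here.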
